A study of Mus musculus with 8 samples.

Results

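Cluster #e1 was one of 8 endothelial clusters that the authors drew in single-cell transcriptomes of the adult mouse liver, and their annotation placed it, together with #e7, at the central vein. Its members were all cells with multilevel cluster number 1 in the deposited endothelial annotation. They were 152 of 1106 endothelial cells and of 3491 cells in the whole series, with 88 cells in the male and 64 in the female endothelial pool. Cells had been sorted from dissociated livers into plates and sequenced with Smart-seq2, a full-length protocol in which each cell is its own library. The series held 8 samples, a male and a female pool of each of 4 cell classes. All mice were adults of 8 weeks to 1 year on a C57BL6/J background, some carrying heterozygous fluorescent reporter transgenes such as *Cldn5*-GFP, and the labels name no treatment. Endothelial cells had been collected by antibodies against CD31 and/or VE-Cadherin, the products of *Pecam1* and *Cdh5*, or by the *Cldn5* reporter. The annotation did not name the mouse of each cell, and the livers were not perfused. The pool was therefore the replicate (n = 2), and sex, mice and plates could not be told apart. No cell identifier occurred in both pools (0 shared).

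Blood enters the liver lobule at the portal tract, passes along the sinusoids and leaves through the central vein. Endothelial cells of the central vein are known as a source of Wnt ligands and of R-spondin 3, a secreted protein that keeps Wnt receptors at the cell surface. In the hepatocytes beside the vein these signals maintain the pericentral programme, with glutamine synthesis and drug metabolism among its tasks. The portal vein, which #e2 represents, brings blood from the gut and has features of arterial endothelium.

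The cells of #e1 held a median of 320226 counts in the male and 321436 in the female pool, with single cells between 59767 and 1128421. The 7 other clusters had medians from 110837 to 303731, and #e7 had the fewest genes per cell, with a median of 2806 against 4094 in #e1. *Xist*, the RNA of the inactive X chromosome, stood at 413 CPM (counts per 1000000) in the female and 0.14 CPM in the male #e1 cells, as the sex labels require. Levels below are CPM of the counts summed over the #e1 cells of a pool, given for the male and then the female pool. Fold changes come from edgeR's quasi-likelihood fit on these sums (18321 genes tested) and carry their standard error (SE). Where several clusters stood on the other side, the fit averaged them on the log scale. Clusters with few counts pull such a mean down. The fold change can then be far larger than the log2 ratio to the plain mean CPM of these clusters, which is given for some genes. A gene was called where its adjusted p was under 0.05 and its log2 fold change at least 1 in size. The clusters had been drawn on these same genes, so a call describes a difference that was large beside the spread between the pools and is no independent test.

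The central vein label had been given from *Rspo3*, *Wnt9b* and *Wnt2* in these same cells, and the authors named *Bmp4*, *Cyp1b1* and *Selp* as enriched there. The levels of the markers therefore describe the label and are no independent check of it. Against the log-scale mean of the other 7 clusters all 5 central vein markers were called higher in #e1, where 1.32% of all tested genes were. *Rspo3*, which encodes R-spondin 3, was at 2605 and 1920 CPM, and the highest sum outside #e1 was 2060 CPM in male #e7, so the groups overlapped (log2 fold change 4.36, SE 0.26). *Wnt9b*, a Wnt ligand, was at 651 and 635 CPM, above all 14 other sums, of which male #e6 was highest at 474 CPM (4.75, SE 0.48). *Bmp4*, a BMP family ligand, was at 1154 and 1061 CPM, and the highest other sum was 548 CPM in male #e7 (5.38, SE 0.44). *Cyp1b1*, a cytochrome P450, was at 393 and 300 CPM, and no other sum passed 99.9 CPM (7.60, SE 0.88). Log2 ratios to the plain mean CPM of the other clusters were smaller, 2.98 and 3.31 for *Bmp4* and 4.16 and 4.85 for *Cyp1b1*. *Selp*, the leukocyte receptor P-selectin, was at 1292 and 1078 CPM, with male #e7 in between at 1197 CPM (4.27, SE 0.47). Hence 3 of the 5 markers were above every other sum in both #e1 pools, where 1.35% of all genes were, and *Rspo3* and *Selp* did not separate it from #e7.

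**Figure D1:**
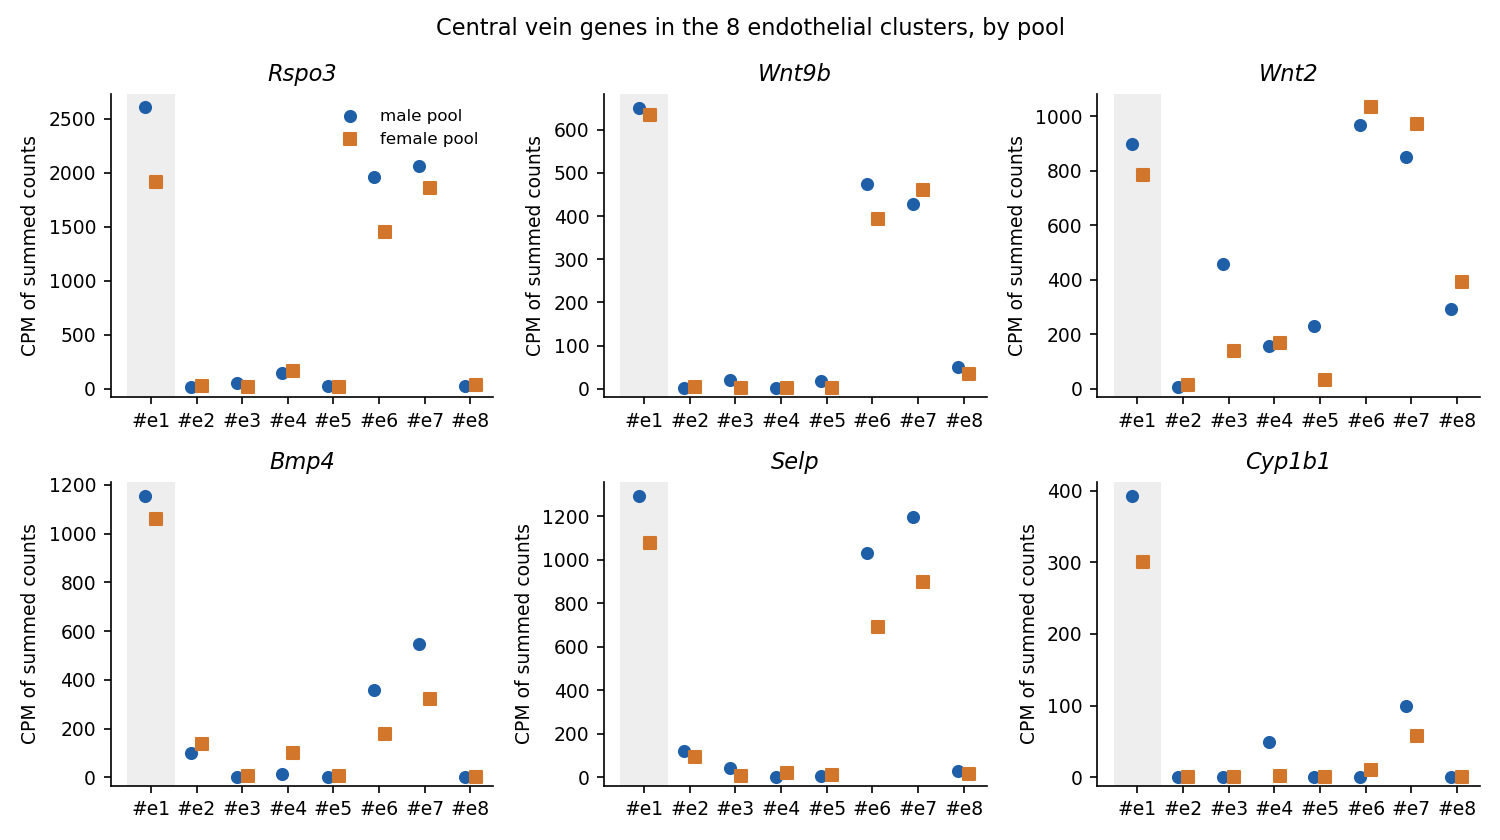
Level of 6 central vein genes in CPM (y axis, linear) in the summed cells of each endothelial cluster (x axis), with the male pool as circles and the female pool as squares, 1 point per pool. *Rspo3*, *Wnt2* and *Selp* were shared by #e1, #e6 and #e7, and *Bmp4* and *Cyp1b1* were highest in #e1 in both pools.

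Markers of other cell types were low in #e1. The 10 hepatocyte markers summed to 444 and 437 CPM in #e1, against 395 to 1343 CPM in the other clusters. The 7 immune markers summed to 31.5 and 8.67 CPM, the 10 mesenchymal markers to 22.1 and 27.7 CPM, the 3 cholangiocyte markers to 0.245 and 0.849 CPM and the 5 lymphatic markers to 2.45 and 4.60 CPM, where lymphatic #e4 had 6357 and 6094 CPM. *Pecam1* had a count in 152 of 152 #e1 cells.

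Cell by cell, the markers were widely but unevenly held. *Rspo3* had a count in all 152 cells, and its level per cell ran from 223 CPM over a median of 2423 to 5601 CPM. *Bmp4* ran from 0 over 988 to 7082 CPM, *Selp* from 0 over 1157 to 4874 CPM and *Wnt9b* from 0 over 471 to 2985 CPM. *Cyp1b1* was the least widely held marker, with a count in 101 of 152 cells (66.4%, exact 95% binomial interval 58.3 to 73.9%, counting error only) and a median of 131 CPM. A single count said little here, since 80.5% of #e2 cells also had a *Rspo3* count at a summed level of 18.2 CPM. With a limit of 20 counts, *Rspo3* was found in 2.34% of #e2 cells, 80.0% of #e7 cells and 92.0% of #e6 cells. *Cyp1b1* passed that limit in 52.0% of #e1 cells, 7.33% of #e7 cells, 1.79% of #e6 cells and 0 of 128 #e2 cells, which allows a share of up to 2.34%. After every cell was thinned to 50000 counts, 66 of 152 #e1 cells (43.4%) had all 5 markers and 62 (40.8%) had 4. All 5 were found in 3.36% of #e7 cells, in 0 of 112 #e6 cells, which allows a share of up to 2.68%, and in 0 of 127 #e2 cells, which allows up to 2.36%.

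**Figure D2:**
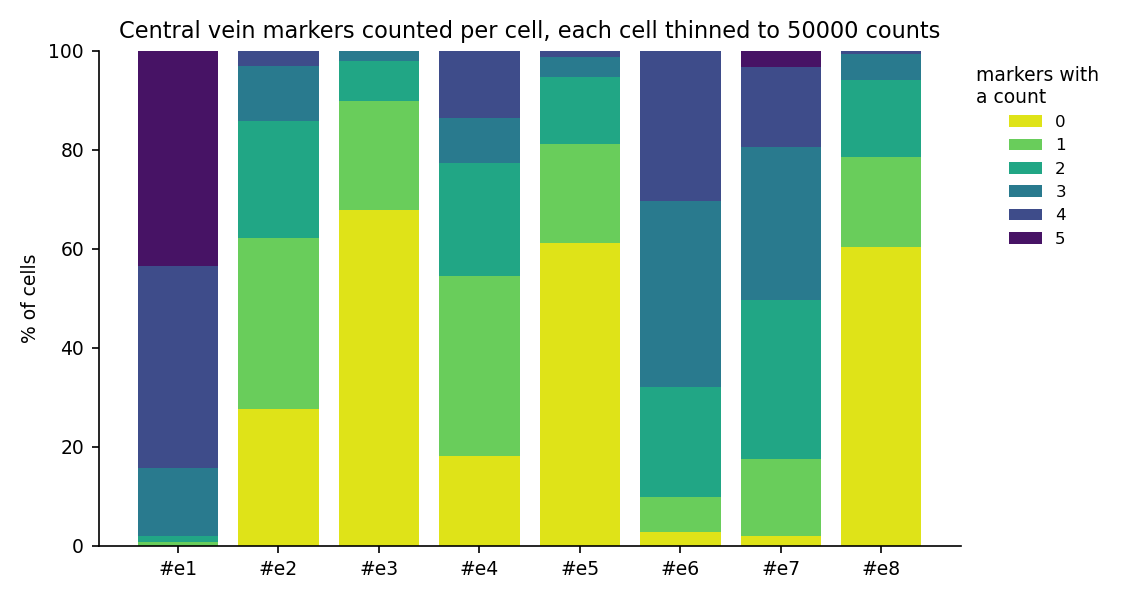
Share of the cells of each endothelial cluster (y axis, percent) by how many of the 5 central vein markers had a count (colours, 0 to 5), after thinning to 50000 counts per cell. In #e1 43.4% of cells had all 5 markers, and #e7 was the only other cluster above 0, at 3.36%.

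A few Wnt ligand genes were high in #e1. In this and the following lists the counts stand beside 1.32% of all tested genes called higher and 0.0873% called lower. Of 23 Wnt and R-spondin genes 6 were abundant enough to be tested, and 3 were called higher against the other clusters, *Rspo3*, *Wnt9b* and *Wnt2*. *Wnt2*, another Wnt ligand, was at 896 and 786 CPM in #e1, below both sums of #e6 (966 and 1032 CPM) and overlapping with #e7 (851 and 972 CPM), and its difference from the mean of the others was smaller (2.003, SE 0.45) and was no longer called with the pool as a block, with DESeq2, with the second community cluster (#e1c, the second largest of the authors' finer clusters within #e1; #e11c was the largest) or without either #e1 pool (1.92 and 2.12). Of 18 genes that feed back on or inhibit Wnt signalling 12 were tested and 2 called higher, *Frzb*, a secreted Wnt antagonist (40.1 and 104 CPM, 8.46, SE 1.19), and *Rnf43*, a ligase that removes Wnt receptors (23.4 and 33.9 CPM, 7.32, SE 1.57). Both came from few cells, with a count in 16.4% and 7.89% of #e1 cells, and *Rnf43* lost its call with DESeq2, with at least 10 cells per sum, with the second community cluster and without the female #e1 pool (7.04). In the 2 largest community clusters of #e1, male and then female, *Rnf43* was at 77.3 and 40.2 CPM in #e11c and at 0.353 and 0 CPM in #e1c. None of 11 tested Wnt receptor genes was called, and the median of that list was -0.08, beside 0.20 over all genes tested.

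Among BMP and TGF-β genes 2 ligands and 3 response genes were called higher in #e1, where 1.32% of all genes were. *Bmp4* and *Tgfb2*, a TGF-β ligand (227 and 153 CPM, 4.34, SE 0.90), were the ligands among 8 tested, and *Tgfb2* lost its call without either #e1 pool (4.04 and 4.62). *Bmp2*, which sinusoidal endothelium secretes to control hepatocyte iron sensing, was at 130 and 111 CPM in #e1 and reached 1585 CPM in male #e3, a difference that was not called (-1.48, SE 0.77). The response genes, of 16 tested, were *Id2*, a BMP target (840 and 717 CPM, 1.42, SE 0.29), *Ccn1*, a matricellular protein (783 and 524 CPM, 2.90, SE 0.65), and *Fstl1*, a secreted BMP binding protein (476 and 849 CPM, 3.38, SE 0.46). *Id2* (1.32 and 1.56) and *Ccn1* (2.60 and 3.19) lost their calls without either #e1 pool, and also with DESeq2 and without the plate with most #e1 cells. *Id2* also lost its call with DESeq2 size factors and the largest community cluster, and *Ccn1* with the second community cluster and sums per plate. *Bambi*, a decoy receptor, was at 378 and 306 CPM and was not called (3.07, SE 0.85).

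Genes of venous endothelium, of blood clotting and of leukocyte capture included some of the largest differences between #e1 and the other clusters. Of 10 venous genes 4 were called higher and none lower, with a median log2 fold change of 1.65, beside 1.32% called higher and a median of 0.20 over all genes. *Vwf*, von Willebrand factor, was at 2241 and 3017 CPM, above all 14 other sums, the next being female #e7 at 1879 CPM (5.08, SE 0.23). Its log2 ratios to the plain mean CPM of the other clusters were 2.37 and 2.50. *Icam1* (918 and 838 CPM, 2.74, SE 0.54) and *Vcam1* (680 and 830 CPM, 2.40, SE 0.33), the integrin ligands on which leukocytes arrest, were also above every other sum. In the adhesion list 5 of 14 tested genes were called higher and none lower, *Alcam* (155 and 151 CPM, 5.68, SE 0.70) and *Jam2* (2177 and 2886 CPM, 1.92, SE 0.37) besides *Selp*, *Icam1* and *Vcam1*. The #e1 sums overlapped with #e7 for *Alcam* (34.6 and 167 CPM in #e7), *Jam2* (1706 and 2220 CPM) and *Selp*. *Icam1* lost its call without either #e1 pool (2.69 and 2.83), and *Jam2* with DESeq2 and without the female #e1 pool (1.74). In the clotting list 2 of 15 were called higher, *Vwf* and *Entpd1*, which breaks down extracellular ATP and ADP (1482 and 1404 CPM, 4.33, SE 0.36), with male #e7 in between at 1481 CPM. *Nr2f2*, the transcription factor of venous identity, was at 237 and 192 CPM in #e1 and between 159 and 454 CPM elsewhere.

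Of 26 tested elastic fibre and related matrix genes 5 were called higher in #e1 and none lower, where 1.32% and 0.0873% of all genes were. *Eln*, elastin, was at 134 and 312 CPM (5.03, SE 0.63), and *Fbln5*, which tethers elastic fibres, at 455 and 401 CPM (4.79, SE 0.42). For *Eln* the log2 ratios to the plain mean CPM were 1.59 and 2.58. The others were *Fbln2* (3.41, SE 0.54), *Prelp* (1.45, SE 0.30) and *Mgp* (3.64, SE 0.84). The paper reports *Eln* and *Fbln5* in both portal and central vein endothelium. Of 5 plates with #e1 and #e2, *Eln* was higher in #e1 on 3 (log2 ratio -0.17 to 1.32). *Fbln5* was higher on 1 (-1.21 to 1.05) and *Fbln2* on 2 (-0.88 to 0.26). *Fbln2* lost its call with the second community cluster of #e1. *Prelp* lost its call with DESeq2, with its size factors, with the second community cluster and without either #e1 pool (1.52 and 1.41). *Mgp* lost its call with the pool as a block, with DESeq2 size factors, with thinned cells, with sums per plate, with the second community cluster, without the plate with most #e1 cells and without either #e1 pool (2.32 and 4.34). In addition, #e2 held more of it (204 and 126 CPM) than #e1 (61.5 and 15.2 CPM). None of 14 tested basement membrane genes was called, and their median was -1.62 beside 0.20 over all genes. *Col4a1*, a collagen IV chain, was at 151 and 68.2 CPM in #e1 and between 158 and 577 CPM in the other sums (-1.74, SE 0.50, not called).

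Among 17 tested vasoactive genes 1 was called higher, beside 1.32% of all genes. *Edn1*, the constrictor peptide endothelin 1, was at 714 and 709 CPM in #e1, above all other sums, the highest of which was 443 CPM in female #e2 (5.17, SE 0.41). Its log2 ratios to the plain mean CPM of the other clusters were 2.28 and 2.69. *Ptgs1*, a prostaglandin synthase, was at 1252 and 965 CPM (1.65, SE 0.53) and *Calcrl*, the adrenomedullin receptor, at 851 and 1306 CPM (1.30, SE 0.47), and neither was called. Of the 30 clusters of the whole series #e1 ranked first for *Edn1*, *Vwf*, *Rspo3*, *Wnt9b*, *Bmp4*, *Selp*, *Icam1*, *Vcam1* and *Cyp1b1*, over both pools. The next non-endothelial cluster was at 357 CPM for *Rspo3*, 465 CPM for *Bmp4* and 263 CPM for *Cyp1b1*, all 3 mesenchymal.

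**Figure D3:**
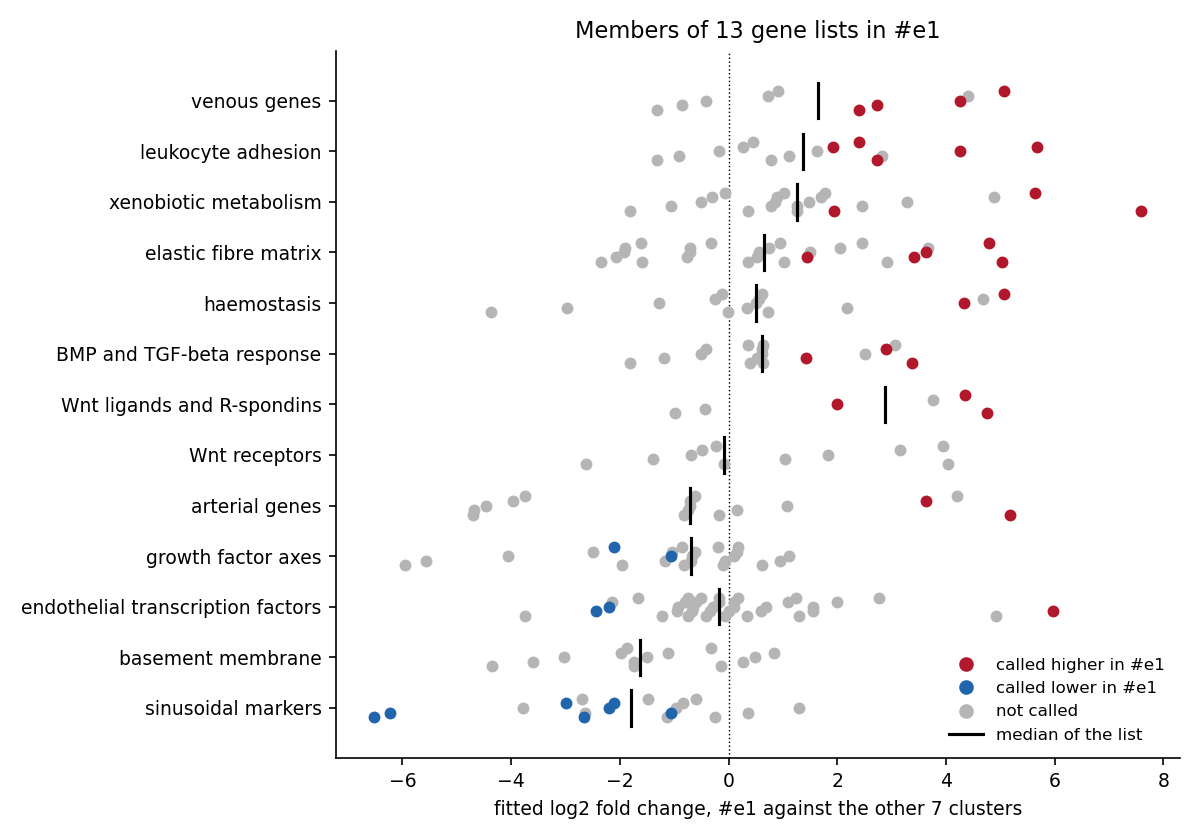
Fitted log2 fold change of #e1 against the other 7 clusters (x axis) for the tested members of 13 gene lists (y axis), 1 point per gene, red where called higher, blue where called lower and grey where not called, with the list median as a bar. The sinusoidal list held 7 genes called lower and none called higher, and the adhesion list 5 called higher and none lower.

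Of 21 genes that handle foreign compounds 3 were called higher in #e1 and none lower, beside 1.32% and 0.0873% of all genes. *Fmo2*, a flavin-containing monooxygenase, was at 613 and 2148 CPM (5.64, SE 0.73) and *Ephx1*, an epoxide hydrolase, at 342 and 349 CPM (1.94, SE 0.34), with *Cyp1b1* as the remaining gene. *Ephx1* lost its call without either #e1 pool (1.97 and 1.95). Of 5 plates with #e1 and #e2 it was higher in #e1 on 3 (log2 ratio -0.48 to 1.32). Both *Cyp1a1* and *Cyp1b1*, members of the CYP1 family, are classical targets of the aryl hydrocarbon receptor. *Cyp1a1* stood at 29.3 and 20.5 CPM in #e1 and at 609 and 829 CPM in #e2, whereas *Cyp1b1* stood at 0.496 and 0.473 CPM in #e2. The pools did not overlap for either gene, and neither was called between #e1 and #e2 in edgeR on the pool sums, whereas DESeq2 called both. The receptor gene *Ahr* was at 243 and 234 CPM in #e1 and 116 and 121 CPM in #e2. The promoters of the 2 genes are shown because their levels were high in opposite veins (RefSeq, build GRCm38.p6, from 250 bases before to 50 after the start of the gene, both matched). Capitals mark GCGTG, the core of the receptor's response element, or its reverse complement CACGC.
Cyp1b1: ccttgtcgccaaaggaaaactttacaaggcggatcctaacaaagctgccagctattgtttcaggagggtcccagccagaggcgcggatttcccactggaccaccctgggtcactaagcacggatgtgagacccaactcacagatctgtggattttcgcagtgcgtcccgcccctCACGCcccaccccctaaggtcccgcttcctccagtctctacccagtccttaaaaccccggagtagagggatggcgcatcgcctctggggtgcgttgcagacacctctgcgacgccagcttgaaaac
Cyp1a1: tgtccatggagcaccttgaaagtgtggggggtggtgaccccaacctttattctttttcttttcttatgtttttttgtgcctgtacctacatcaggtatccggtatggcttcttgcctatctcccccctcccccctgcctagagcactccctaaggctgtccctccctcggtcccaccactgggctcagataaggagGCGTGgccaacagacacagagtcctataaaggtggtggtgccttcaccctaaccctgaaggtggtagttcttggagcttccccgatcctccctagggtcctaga
The first is chr17:79715012-79715311 on the minus strand, with the letters 76 bases before the start, and the second chr9:57697363-57697662 on the plus strand, with the letters 54 bases before it. Each window held 1 match and 32.4% of 32851 mouse promoters held the letters on either strand, so that both genes had them in common with many others.

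Sinusoidal genes were lower in #e1 or did not pass the test. Of 18 sinusoidal genes 7 were called lower and none higher, where 0.0873% of all genes were called lower, and the list median was -1.79. *Stab2*, a scavenger receptor for hyaluronan, was at 20.3 and 10.2 CPM, below all other sums, which ran from 228 to 4548 CPM (-6.23, SE 0.63), and 0.284% of all genes were below every other sum. It still had a count in 84.9% of #e1 cells, but at least 20 counts in 3.29%. *Lyve1*, another hyaluronan receptor, was at 1.61 and 1.25 CPM (-6.51, SE 0.84), close to #e7 (2.80 and 2.32 CPM), while #e6 had 19.9 and 2.32 CPM. *Mrc1*, the mannose receptor, was at 116 and 113 CPM (-2.99, SE 0.56). *Flt4* (-2.11, SE 0.39) and *Kdr* (-1.06, SE 0.24), the VEGF receptors, *Dnase1l3*, a secreted nuclease (-2.66, SE 0.64), and the transcription factor *Maf* (-2.20, SE 0.38) made up the 7. Calls were lost without either #e1 pool for *Mrc1* (-2.99 and -2.94) and *Kdr* (-0.98 and -1.09), and without the female pool for *Flt4* (-1.70), *Dnase1l3* (-1.83) and *Maf* (-1.90). *Kdr* also lost its call with DESeq2, with its size factors, without a filter, with thinned cells and with sums per plate. *Maf* lost it with sums per plate, *Flt4* without the plate with most #e1 cells and *Dnase1l3* with the second community cluster. Other members remained well expressed, with *Clec4g* at 1007 and 905 CPM and *Gata4*, a regulator of sinusoidal identity, at 710 and 736 CPM (1.29, SE 0.42, not called).

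*Cldn5*, the tight junction protein claudin 5, was at 14.1 and 10.01 CPM in #e1, and all other sums lay between 37.3 and 1868 CPM (-5.79, SE 0.46). At least 20 counts were present in 1.97% of #e1, 4.67% of #e7, 77.3% of #e2 and 89.7% of #e8 cells. Of the other 9 pan-endothelial genes none was called. Of 37 tested endothelial transcription factors 2 were called lower, beside 0.0873% of all genes, *Maf* and *Ets1* (85.9 and 71.3 CPM, -2.43, SE 0.52). *Ets1* lost its call without either #e1 pool (-2.56 and -2.28) and with the second community cluster. *Meox2* was called higher at 2.62 and 5.59 CPM, from 4.61% of the cells, and it lost its call with DESeq2, with at least 10 cells per sum, with thinned cells, with either community cluster, without the plate with most #e1 cells and without the female #e1 pool (5.32).

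Against the 4 sinusoidal clusters #e3, #e5, #e6 and #e8, 1.33% of all genes were called higher and 0.147% lower, that is 244 and 27 genes, and DESeq2 called 324 and 359. *Bmp4* (7.23, SE 0.55), *Fbln5* (8.19, SE 0.54), *Eln* (8.09, SE 0.82) and *Fmo2* (7.86, SE 0.94) were among those higher, with *Fxyd6*, a regulator of the sodium pump (286 and 408 CPM, 7.85, SE 0.70), *Cd200*, a surface glycoprotein (226 and 466 CPM, 7.67, SE 0.72), and the secreted protease *Prss23* (1118 and 909 CPM, 7.30, SE 0.44). To the plain mean CPM of these clusters the log2 ratios were 3.67 and 4.49 for *Bmp4*, 3.73 and 5.36 for *Prss23* and 4.47 and 7.39 for *Fxyd6*. They were 7.46 and 7.83 for *Fbln5*, 7.11 and 6.81 for *Eln*, 7.96 and 6.89 for *Fmo2* and 7.63 and 7.01 for *Cd200*. *Stab2* (-7.36, SE 0.68), *Adam23* (-6.63, SE 1.52), *Gatm*, an enzyme of creatine synthesis (-4.91, SE 1.10), and *Plxnc1*, a semaphorin receptor (-3.69, SE 0.85), were lower. Without the female #e1 pool *Adam23* (-5.78), *Gatm* (-4.02) and *Plxnc1* (-3.26) were not called, and *Plxnc1* was not without the male pool either (-4.28). All 3 also lost their calls with the second community cluster, and *Adam23* without the plate with most #e1 cells. *Cd200* was also present in #e2, at 528 and 733 CPM.

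The direct comparison with the portal vein cluster #e2, of 128 cells, set endothelium at the outlet of the lobule against that at its inlet. Both pools of #e1 lay above both of #e2 for 5 of 5 central vein markers and below them for 5 of 5 portal vein markers, where 16.9% and 18.7% of all genes did so. The authors had labelled these same cells by such markers or named the markers as enriched in them. Their direction was therefore set in advance and is no test. In edgeR on the pool sums 0.0491% of genes were called higher and 0.0273% lower, that is 9 and 5 genes, while DESeq2 called 149 and 158 and sums per plate 174 and 51. *Wnt9b* was at 1.92 and 3.15 CPM in #e2 (8.02, SE 1.13), *Rspo3* at 12.7 and 22.8 CPM (7.04, SE 0.59) and *Wnt2* at 4.65 and 13.4 CPM (6.59, SE 0.89). The other genes called higher in #e1 were *Prelp*, a matrix proteoglycan (4.53, SE 0.53), *Prss23* (4.20, SE 0.68), *Dhrs3*, which reduces retinal (2.85, SE 0.43), *Pde2a*, a cyclic nucleotide phosphodiesterase (2.47, SE 0.34), *Tcn2*, the vitamin B12 carrier (2.23, SE 0.38), and *Eng*, a TGF-β co-receptor (1.19, SE 0.20). Without 1 of the #e2 pools *Wnt9b* (7.74 and 8.40), *Prss23* (3.97 and 4.50), *Wnt2* (6.04), *Dhrs3* (2.32) and *Pde2a* (2.30) were not called, and *Eng* (1.14 to 1.25) and *Tcn2* (2.12 to 2.38) were not without any 1 of the 4 pools. With DESeq2 size factors *Eng*, *Tcn2* and *Prss23* were not called. *Eng* also lost its call with DESeq2 and without the plate with most #e1 cells, and *Tcn2* with the largest community cluster.

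The 5 genes called lower were *Msr1*, a scavenger receptor (0.875 and 2.46 CPM in #e1, 505 and 831 CPM in #e2, -8.61, SE 0.95), *Lyve1* (-7.04, SE 0.90), *Cldn5* (-6.67, SE 0.51), *Stab2* (-4.02, SE 0.60) and *Ldb2*, a transcriptional cofactor (-3.68, SE 0.64). *Ldb2* was not called without any 1 of the 4 pools (-3.82 to -3.50), nor *Stab2* without the female #e1 pool (-3.60). *Ldb2* also lost its call with DESeq2 size factors, with either community cluster and without the plate with most #e1 cells. The portal vein markers were not called by edgeR on the pool sums, although DESeq2 called *Gja5*, *Vegfc* and *Adgrg6*, and sums per plate *Gja5* and *Ly6a*. *Gja5*, an arterial gap junction protein, was at 3.39 and 4.60 CPM in #e1 and 451 and 533 CPM in #e2 (-6.90, SE 1.71). *Vegfc*, the lymphatic growth factor, was at 1.43 and 8.85 against 439 and 424 CPM (-6.36, SE 1.59), and *Adgrg6*, an adhesion receptor, at 16.1 and 27.5 against 364 and 445 CPM (-4.18, SE 1.35). *Cd34* (-2.59, SE 0.88) and *Ly6a* (-1.51, SE 0.61) remained present in #e1, *Ly6a* at 610 and 696 CPM.

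Of 18 arterial genes 12 lay below #e2 in both pools, where 18.7% of all genes did, and the median of the 16 tested was -3.21, beside -0.03 over all genes. *Dll4*, a Notch ligand, was at 3.95 and 2.91 CPM in #e1 and 580 and 490 CPM in #e2 (-7.25, SE 1.53), and *Jag1*, another Notch ligand, at 36.6 and 29.9 against 207 and 178 CPM (-2.50, SE 1.64). The endothelin receptor gene *Ednrb* was at 33.6 and 64.5 against 778 and 668 CPM (-3.85, SE 1.21), while the ligand gene *Edn1* was at 714 and 709 against 433 and 443 CPM (0.73, SE 0.71). *Cd36*, a fatty acid transporter, was at 299 and 118 against 1662 and 1387 CPM (-2.84, SE 0.52). *Kit*, a receptor tyrosine kinase, was higher in both #e1 pools, at 334 and 134 against 6.08 and 6.31 CPM (5.27, SE 1.10), as was *Dkk3*, a Dickkopf family member, at 68.0 and 69.7 against 1.05 and 1.37 CPM (5.86, SE 1.48). None of these genes was called against #e2 by edgeR on the pool sums, whereas DESeq2 called *Dll4*, *Ednrb*, *Cd36*, *Kit* and *Dkk3*, and sums per plate called *Dll4*, *Cd36*, *Kit* and *Dkk3*.

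On 5 plates at least 5 cells of each vein cluster had been sorted side by side, with 136 cells of #e1 in all, so that plate and sex were shared. *Rspo3* was at 1416 to 2907 CPM in #e1 and 3.91 to 24.2 CPM in #e2 on these plates, and *Wnt9b* at 457 to 996 against 0 to 5.09 CPM. *Cyp1b1* was at 260 to 868 against 0 to 2.79 CPM. In the opposite direction, *Gja5* was at 0 to 5.07 CPM in #e1 and 439 to 1687 CPM in #e2, *Dll4* at 0 to 3.16 against 441 to 967 CPM and *Cyp1a1* at 0 to 40.4 against 360 to 1343 CPM. For these 6 genes the plate values of the 2 clusters did not overlap. The genes shown by plate here were chosen after their values were seen, and the share of all genes without overlap was not counted. *Edn1* was higher in #e1 on 4 of 5 plates, with log2 ratios from -0.65 to 2.26, and *Stab2* lower on 5 of 5, from -6.42 to -0.15. *Cd34*, *Ly6a*, *Adgrg6*, *Vegfc* and *Cd36* were lower in #e1 on 5 of 5 plates.

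**Figure D4:**
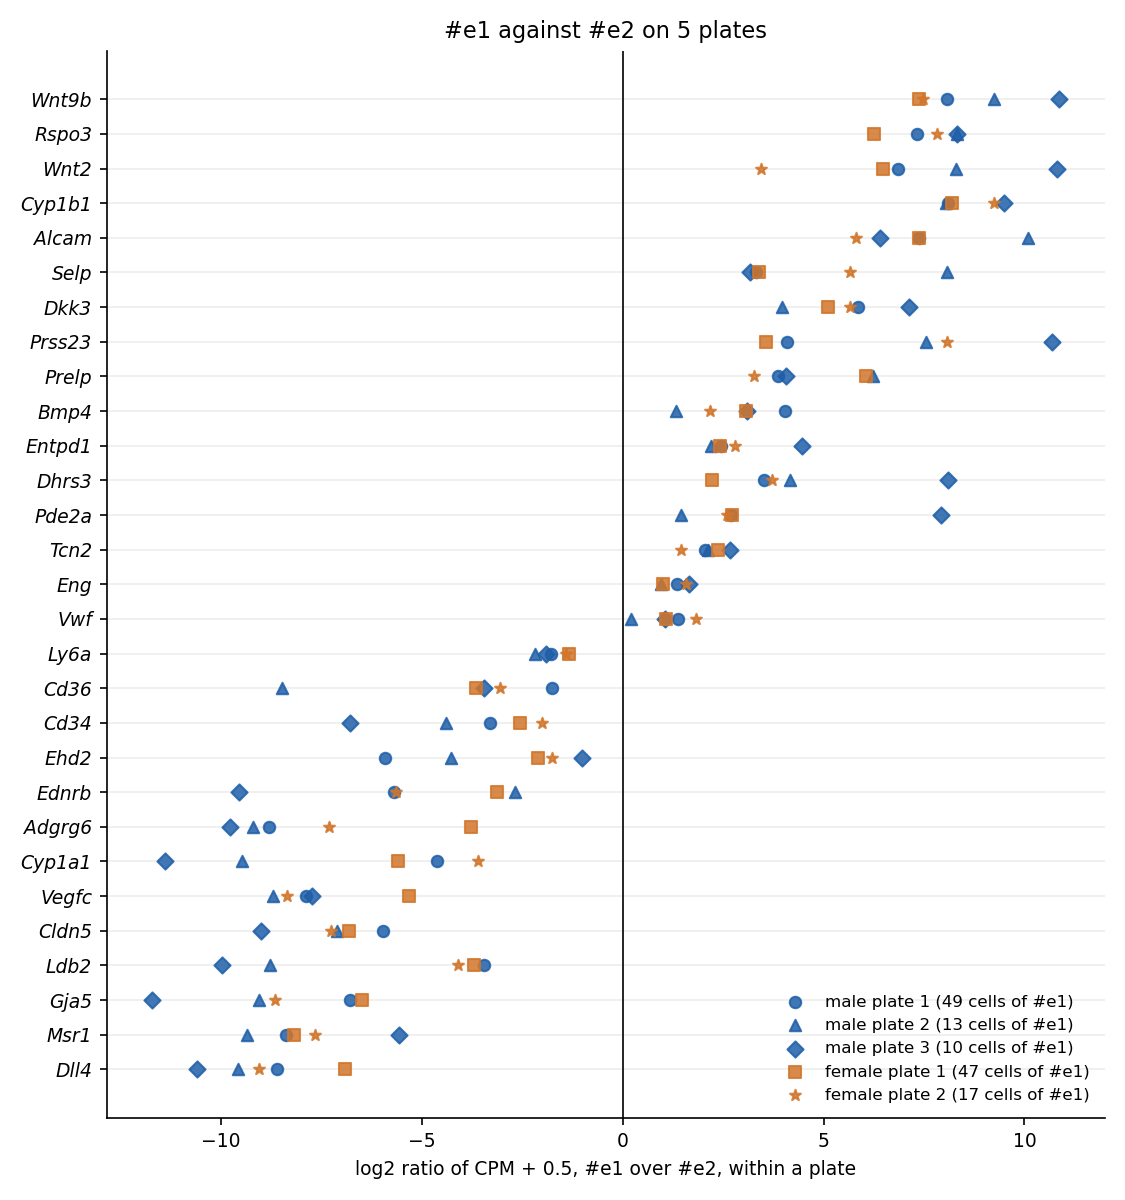
Log2 ratio of CPM plus 0.5 between #e1 and #e2 (x axis) for named genes (y axis) on each of the 5 plates that held at least 5 cells of both clusters, 1 point per plate, male plates in blue and female plates in orange. *Rspo3* lay between 6.26 and 8.33 and *Gja5* between -11.72 and -6.49, with no plate on the other side of 0.

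Cluster #e7, of 150 cells, carries the same central vein annotation. The calls were 0.0109% of genes higher and 0.00546% lower in #e1, that is 2 and 1 genes, but DESeq2 called 525 and 112, and both #e1 sums lay above both #e7 sums for 28.4% of genes. The small count in edgeR therefore does not show that the clusters were alike. *Stab2* was at 20.3 and 10.2 CPM in #e1 and 317 and 318 CPM in #e7 (-4.67, SE 0.62). *Ier3*, an immediate early gene, was at 690 and 198 against 1.36 and 1.77 CPM (7.85, SE 0.98), and *Malat1*, a nuclear long non-coding RNA, at 1934 and 1581 against 525 and 397 CPM (1.65, SE 0.25). Both lost their calls without either #e7 pool (*Ier3* 7.62 and 8.17, *Malat1* 1.81 and 1.56), and *Malat1* also without the male #e1 pool (1.52), with DESeq2 size factors and with sums per plate. *Rspo3*, *Wnt2* and *Selp* overlapped between the clusters, and *Wnt9b* was higher in both #e1 pools by little (429 and 460 CPM in #e7, 0.24, SE 0.83). *Bmp4* (548 and 322 CPM in #e7, log2 fold change 1.08, SE 0.77) and *Cyp1b1* (99.9 and 57.5 CPM, 1.87, SE 1.53) were higher in both #e1 pools without a call. On the 2 plates that held at least 5 cells of both clusters *Bmp4* was higher in #e1 by log2 ratios of 1.70 and 2.32, *Cyp1b1* by 2.37 and 1.11 and *Rspo3* by 0.02 and 0.29. Of 18 sinusoidal genes 11 were lower in #e1 than in #e7 in both pools, where 10.1% of all genes were.

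Genes that respond to tissue dissociation moved with this comparison. Of 18 such genes 17 were above #e7 in both #e1 pools, where 28.4% of all genes were, and together they summed to 12073 and 2944 CPM in #e1 and to 1220 and 711 CPM in #e7. *Fos* (4.21, SE 1.11), *Junb* (3.86, SE 0.77) and *Atf3* (6.92, SE 2.58), all immediate early transcription factors, were in that direction without a call. The difference was also present within plates, at 2173 against 710 CPM on female plate 1 and 19424 against 6280 CPM on male plate 3. Cells of #e7 were shallower, with medians of 177419 counts against 320683 in #e1. The part of dissociation and of depth in the difference between #e1 and #e7 was not tested.

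Cluster #e6, of 112 cells, is annotated as sinusoidal. On the 4 plates that held both, *Rspo3* differed from #e6 by log2 ratios of -0.13 to 0.48 and *Wnt2* by -0.58 to 0.32, in either direction. *Cyp1b1* (4.60 to 9.52), *Bmp4* (1.06 to 2.82), *Fbln5* (6.76 to 7.66), *Eln* (5.34 to 7.77), *Vwf* (2.07 to 5.29) and *Edn1* (1.26 to 3.22) were higher in #e1 on 4 of 4 plates. *Cldn5* (-5.75 to -2.36), *Mrc1* (-3.74 to -2.11), *Dnase1l3* (-8.05 to -2.39) and *Kit* (-3.79 to -1.87) were lower on 4 of 4. These genes were chosen after their values were seen, and the share of all genes that did so was not counted. Others did not split on all plates. *Stab2* was higher in #e1 on 1 of 4 (-7.82 to 0.34), where both levels were low (2.30 against 1.71 CPM). *Selp* (-0.38 to 2.01) and *Vcam1* (-0.34 to 3.41) were higher on 3 of 4. *Wnt9b* was higher on 4 of 4 plates by a small amount, 0.29 to 1.06.

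Within #e1 levels varied between plates to different extents. On the 5 plates with at least 5 #e1 cells *Rspo3* ran from 1416 to 2907 CPM, *Selp* from 1033 to 1509 CPM, *Bmp4* from 762 to 1483 CPM, *Wnt9b* from 457 to 996 CPM and *Cyp1b1* from 260 to 868 CPM. *Vwf* ran from 1492 to 5973 CPM, *Fmo2* from 431 to 2380 CPM, *Dnase1l3* from 4.94 to 658 CPM and *Fos* from 67.4 to 2700 CPM. *Fos*, *Egr1* and *Ier3*, chosen after their values were seen, were higher on all 3 male than on both female plates. The share of all genes that did so was not counted. The summed dissociation genes ran from 2173 CPM on female plate 1 to 19424 CPM on male plate 3. With 1 pool per sex no test of male against female cells was possible, and the sexes could not be told apart from their plates.

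**Figure D5:**
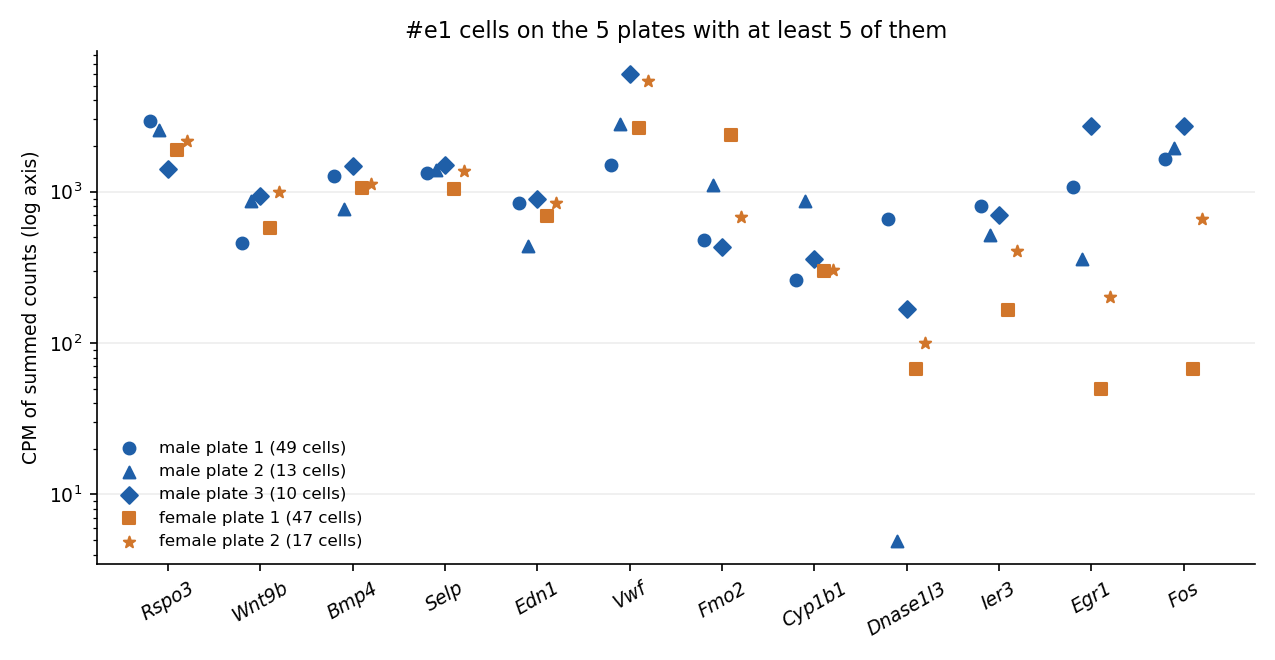
CPM of the summed #e1 cells (y axis, log scale) for 12 genes (x axis) on the 5 plates with at least 5 of these cells, 1 point per plate, male in blue and female in orange. *Rspo3* stayed between 1416 and 2907 CPM, and *Fos* spread from 67.4 to 2700 CPM.

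The authors' finer community setting divided #e1 into 80 cells of #e11c (28 male, 52 female), 68 of #e1c (59 male, 9 female) and 4 cells elsewhere. The division followed the plates in part, since 48 of 49 cells of male plate 1 were in #e1c and 17 of 17 cells of female plate 2 in #e11c. Female plate 1 held 35 cells of #e11c and 9 of #e1c. There *Rspo3* was at 1816 and 2036 CPM in #e11c and #e1c, *Cyp1b1* at 328 and 235 CPM and *Bmp4* at 950 and 1877 CPM. *Vwf* was at 2941 against 768 CPM, *Thbd*, the anticoagulant thrombomodulin, at 854 against 181 CPM, *Cav1*, the caveolar coat protein, at 647 against 96.8 CPM and *Calcrl* at 1630 against 582 CPM, all higher in #e11c. *Dnase1l3* was at 38.6 against 158 CPM, lower in #e11c. These values come from 1 plate and were not tested.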

How the data were processed

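Single cells of mouse liver were profiled by Smart-seq2. The authors deposited 1 table of gene counts per cell (whole reads, not normalised) and an annotation naming plate, sex pool and clusters, and the submitters' processing notes name bcl2fastq, Bowtie, Bowtie2, featureCounts, Subread and Seurat and the builds GRCm38 and mm10, with no version or role. No doublet caller was run here, and the deposited cells and cluster numbers were used as given. Whether counting used strand is not given in the sources used here. The 92 ERCC spike-ins were left out.

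Counts were summed per cluster and pool where at least 5 cells were present (16 sums), filtered with filterByExpr, scaled by TMM and fitted in edgeR 4.0.16 (R 4.3.3, limma 3.58.1) by the quasi-likelihood test, with Benjamini-Hochberg adjustment over all genes. Cluster #e1 was set against the mean of the other 7 clusters, #e2, #e7 and the mean of #e3, #e5, #e6 and #e8. Means over clusters were taken on the log scale. Plate log2 ratios used CPM plus 0.5. Other work used Python 3.11.15, numpy 2.4.6, pandas 2.3.3, scipy 1.17.1 and matplotlib 3.10.9, and DESeq2 1.42.0 served as an alternative. The scripts were tested on simulated data, where many changed genes were missed and the 2 comparisons against means of several clusters called unchanged genes more often than the threshold allows. With 2 pools, p-values measure the spread between these pools. Intervals and limits for shares cover counting error only, since reads carried no molecular identifiers.

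The members and the gene lists were chosen with earlier results of these data known. The central vein, portal vein and lymphatic markers were named, then genes among the 10 largest called differences in a direction (counted in 50% of cells of the higher side, the same direction in both pools, predicted and antisense genes left out) and, within a list, among its 6 largest (counted in 25% of cells of either side). *Frzb*, *Rnf43*, *Prelp*, *Fbln2*, *Edn1* against #e2, *Meox2*, *Mki67* and *Lrat*, the genes shown by plate and community cluster, the promoters and their motif, and any other gene outside this rule, were chosen after their values were seen.

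Male and female sums came from the same pools in every cluster, so the pool pairs them by design. The male minus female differences of 28 pairs of clusters correlated between -0.022 and 0.0999 (median 0.045). The alternatives were DESeq2, its size factors, no filter, at least 10 cells per sum, cells thinned to 50000 counts, sums per plate, a pool block, leaving out a pool, and parts of #e1. Of the last, the second community cluster and the removal of the largest plate were chosen after seeing the data.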

Additional observations from a re-analysis of the deposited data

Results flagged for a closer look

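*Mgp*, matrix Gla protein, stood out because its difference from the other endothelial clusters had opposite signs in the pools. The log2 ratio of #e1 to the plain mean CPM of the other endothelial clusters was 0.93 in the male and -0.39 in the female pool. Cluster #e1 was at 61.5 and 15.2 CPM and #e2, which is part of that mean, at 204 and 126 CPM. The fit that called *Mgp* higher used the log-scale mean instead, so the 2 measures differ. Between plates *Mgp* ran from 4.60 to 64.6 CPM in #e1. The difference between the pools was not tested.

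*Mki67*, a marker of dividing cells, stood out for the same reason, with log2 ratios to the plain mean of -0.017 in the male and 3.61 in the female pool. It was at 0.105 and 8.45 CPM in #e1, with a count in 3 of 152 cells (1.97%) and at least 20 counts in 1 cell. This difference was not tested either.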

How the results depend on the processing

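Of 81 named values that were called, 41 stayed called in every alternative and 0 changed direction. By comparison these were 21 of 47 against the other clusters, 5 of 14 against #e2, 1 of 3 against #e7 and 14 of 17 against the sinusoidal clusters. The counts of called genes moved more. Against the other clusters 242 genes were higher and 16 lower. Without a filter these were 943 and 55, sums per plate gave 509 higher, the second community cluster 151 higher, and DESeq2 162, at least 10 cells per sum 35 and the largest community cluster 38 lower. Leaving out a pool of #e1 gave 156 to 244 higher and 4 to 12 lower, the lowest without the female pool. Against #e2 the 9 higher and 5 lower genes became 149 and 158 with DESeq2, 33 and 38 without a filter, 34 and 16 with at least 10 cells, 21 and 12 with thinned cells and 174 and 51 with sums per plate, and 3 to 8 and 3 to 5 without a pool. *Wnt9b* lost its call without either pool of #e2. Against #e7 the 2 higher and 1 lower became 525 and 112 with DESeq2, 18 and 15 without a filter and 8 and 6 with at least 10 cells. DESeq2 size factors gave 1 higher, the largest community cluster 4 lower and removal of the plate with most #e1 cells 2 lower. Without a pool there were 0 to 3 higher and 1 to 2 lower, and the 0 in edgeR, without either #e7 pool, stood beside 686 and 624 genes at an unadjusted p under 0.05. Against the sinusoidal clusters the 244 higher and 27 lower became 715 and 74 without a filter and 544 and 63 with sums per plate. The lower count was 359 with DESeq2, 65 with at least 10 cells, 41 with thinned cells and 50 with the largest community cluster, and the second gave 133 higher. Without a pool there were 101 to 205 higher and 7 to 16 lower. DESeq2 changed the split of higher to lower calls, to 187 and 162, 149 and 158, 525 and 112, and 324 and 359 in the 4 comparisons. The cause of these moves was not tested.

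With the pool as a block the counts were 192 and 16 against the others, 9 and 5 against #e2, 3 and 2 against #e7 and 225 and 30 against the sinusoidal clusters. *Il1a*, *Mgp*, *Mki67* and *Wnt2* lost their call against the others. The median of all genes in that comparison was 0.20, and 0.05 with DESeq2 size factors. With 2 pools many differences, large ones included, could be missed, and calls against the other and the sinusoidal clusters may hold more false ones than an adjusted p under 0.05 implies.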

Other observations

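Other gene groups of #e1 gave few calls against the other clusters, where 1.32% of all genes were called higher and 0.0873% lower and the median of all genes was 0.20. None of 13 chemokine genes was called (median -1.05). Of 23 tested growth factor genes 2 were called lower, *Kdr* and *Flt4*, and of 11 caveolar and fenestral genes 1 was called higher, *Ehd2*, a membrane-shaping ATPase (82.4 and 134 CPM, 3.16, SE 0.48). Of 16 tested arterial genes 2 were called higher, *Mgp* and *Bmx*, a tyrosine kinase (85.1 and 210 CPM, 5.19, SE 0.97), although the median of that list was -0.71. *Mgp* lost its call with the pool as a block, and its log2 ratio to the plain mean was -0.39 in the female pool. *Bmx* lost its call without the female #e1 pool (4.36), as did *Ehd2* (2.79). Both also lost it with the second community cluster. Of 18 dissociation genes 1 was called higher, *Ier3* (690 and 198 CPM, 2.25, SE 0.46), with a median of 0.68, and its call was lost with sums per plate, with the largest community cluster of #e1 and without the male #e1 pool (1.10). Of 7 tested cell cycle genes 1 was called higher, *Mki67*, from 3 of 152 cells, and its call was lost with the pool as a block, with sums per plate, with DESeq2, with at least 10 cells per sum and without the female #e1 pool (1.03). Of 10 mesenchymal markers 1 was called higher, *Lrat*, an enzyme that esterifies retinol, with a count in 4.61% of #e1 cells. Its call was lost with DESeq2, with at least 10 cells per sum and without either #e1 pool (5.37 and 5.62).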
